A study of Mus musculus with 16 samples.

Results

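The comparison set retinal ganglion cells at the peak of experimental autoimmune encephalomyelitis (EAE) against the same cells at disease onset, across all gene intervals of the deposited table. Libraries were chosen by their titles: 4 were titled Peak and 3 Onset, which makes 7 of the 16 libraries. The peak libraries carried the numbers 11, 12, 14 and 15 and are called peak 1 to 4 here. The onset libraries carried 9, 10 and 17 and are called onset 1 to 3. Both groups were female mice with EAE induced at 7 to 8 weeks of age, and they differed in the label of disease stage. The remaining libraries, 4 presymptomatic with EAE and 5 naive, entered the model to estimate the spread and are cited beside some values. The labels gave no strain, no number of mice per library and no day for a stage. Nothing said that libraries came from separate mice, so p-values measured the spread between libraries, which may be technical.

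EAE is an autoimmune attack on myelin that also reaches the optic nerve, through which retinal ganglion cells send their axons to the brain. ATAC-seq uses a transposase that cuts open chromatin, so more reads over a gene mean DNA that was easier to reach. Rods, cones, bipolar, amacrine and horizontal cells and Müller glia make up the rest of the neural retina, and a sort for ganglion cells aims to leave them out.

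Values were reads over gene bodies and not over promoters. For a gene longer than 2000 bp the counted interval was the gene without its outermost 1000 bp at each end. For a gene under 1000 bp the counted window reached past both ends, so that it covered the gene's start as well. Levels are given as CPM, counts-per-million scaled by the trimmed mean of M values (TMM). Fold changes are log2, peak minus onset, with a standard error (SE) from edgeR's quasi-likelihood test.

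Depth separated the groups before any gene did. Nuclear reads in intervals were 3.39, 3.7, 3.45 and 1.58 M (megareads) in peak libraries, against 4.18, 15.0 and 9.89 M in onset libraries. Every peak library was shallower than every onset library, with means of 3.03 ± 0.978 M at peak (SD, n = 4) and 9.70 ± 5.42 M at onset (SD, n = 3). The exact permutation test over 35 splits (two-sided) gave p = 0.0286, the smallest that it can give, and 0.0857 after adjustment over the 3 library measures. Mitochondrial intervals took 53.0 ± 11.6% of interval reads at peak (SD, n = 4) and 32.3 ± 21.9% at onset (SD, n = 3; exact permutation p = 0.171, adjusted 0.229). Onset 3 stood apart from the other onset libraries, with 8.36% of its reads in the mitochondrial intervals. Olfactory and vomeronasal receptor genes, which are closed in most tissues and served as a measure of background, took 0.282, 0.274, 0.487 and 0.236% of nuclear reads in peak libraries. They took 0.211, 0.278 and 0.202% in onset libraries, a range that peak 2 and peak 4 overlapped (exact permutation p = 0.229, adjusted 0.229). Peak 3 had the highest background share of these 7 libraries. Across the 29902 genes tested, correlations of log2 CPM were 0.834 to 0.874 over the 6 pairs of peak libraries, 0.846 to 0.924 over the 12 pairs of a peak and an onset library, and 0.920 to 0.936 over the 3 onset pairs. Peak libraries thus resembled each other less than they resembled some onset libraries. Pairs of peak libraries were also the shallowest pairs, and the part of depth in these correlations was not tested.

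No gene passed the test. Of 29902 genes, edgeR called 0 (0%) at an adjusted p under 0.05, and the smallest adjusted p was 0.228. DESeq2 called 5 (0.0167%), namely Adh5, Zfp263, Nrl and Gm41702, which were lower at peak, and Emd, which was higher. limma voom with sample quality weights and limma-trend called 0. At an unadjusted p under 0.05, edgeR gave 892 genes (2.98%) higher and 1096 (3.67%) lower at peak, and 5% of genes, about 1495, would pass by chance alone. In 768 genes (2.57%) the 4 peak libraries were all above the 3 onset libraries, and in 1250 (4.18%) all below. Fold changes were above 0 for 52% of genes and below 0 for 48%, with a median of 0.03. Every fold change below therefore describes these libraries and is not a called difference, except where the DESeq2 call is named.

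Rod genes were lower at peak as a list, and ganglion cell genes slightly higher. Of 24 rod genes, 23 passed the filter on low counts (Rom1 did not), and 21 of these 23 were lower at peak, beside 48% of all genes. Their median log2 fold change was -0.75, beside 0.03 for all genes, and 11 were lower at an unadjusted p under 0.05, beside 3.67% of all genes. Of 31 tested ganglion cell genes, 23 were higher at peak, beside 52% of all genes, with a median of 0.24, which was -0.21 when libraries were scaled by total counts. That scaling put the median of all genes at -0.53, so relative to all genes the ganglion cell list stayed higher. The filter used all 4 groups, and the lists say nothing about members below it. The plot of gene lists shows the rods and the replication-dependent histones at the low end.

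**Figure D1:**
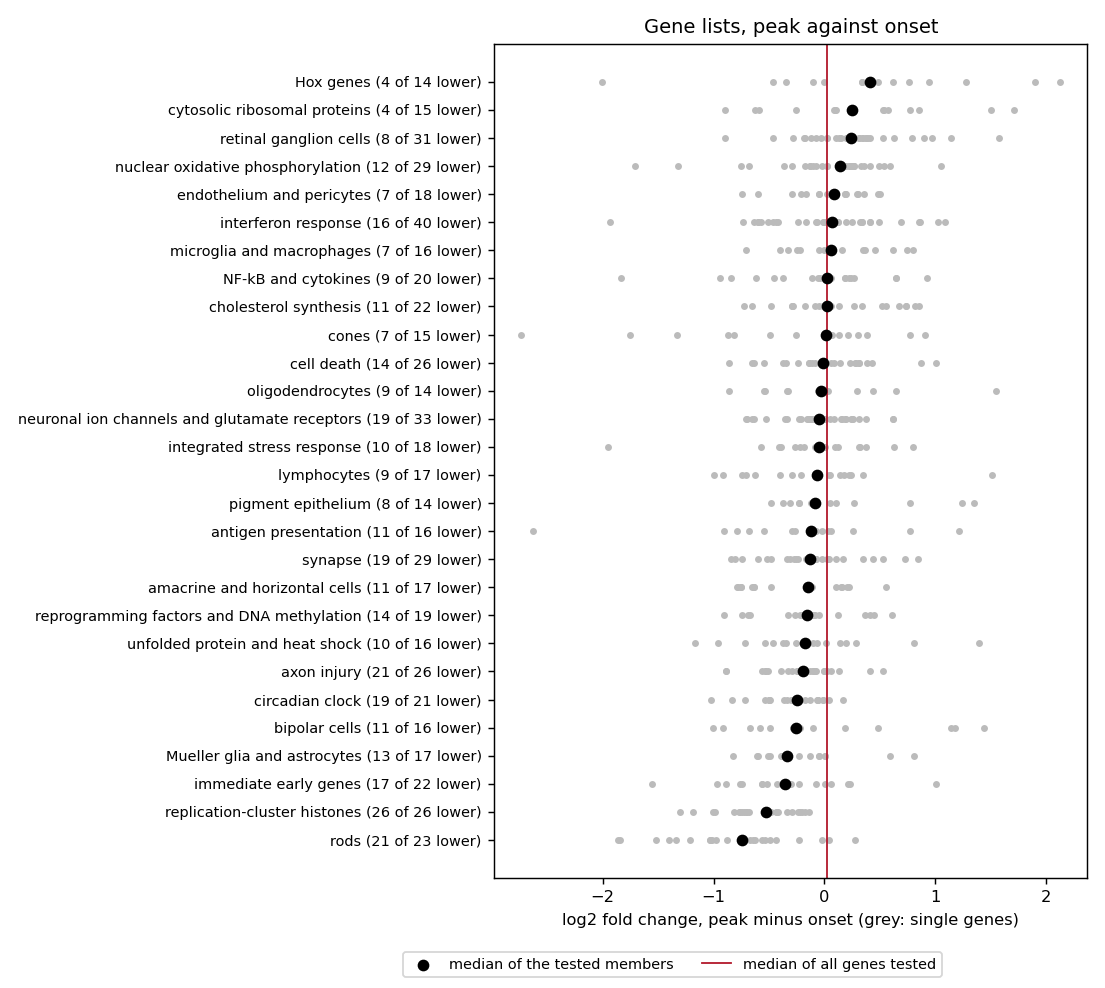
Log2 fold change, peak minus onset, on the horizontal axis for 28 gene lists on the vertical axis. Grey points are single genes, black points the medians of tested members, and the red line the median of all 29902 genes, 0.03. Rods (-0.75) and replication-cluster histones (-0.53) have the lowest medians, and Hox genes (0.41) the highest.

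Among the transcription factors that set rod identity, Nrl, the leucine zipper factor that commits photoreceptor precursors to the rod fate, lies at chr14:55518978-55524981 on the minus strand (coordinates as deposited, build not given). Nrl had 2.55, 2.42, 2.56 and 3.73 CPM in peak libraries, against 7.15, 8.16 and 14.4 CPM in onset libraries. All peak libraries were below all onset libraries, also with onset 3 left aside, and the log2 fold change was -1.85 ± 0.41 (SE). The adjusted p was 0.568 with edgeR and 0.0477 with DESeq2. Nr2e3, a nuclear receptor that represses cone genes in rods, had 14.6, 12.7, 13.9 and 38.8 CPM at peak and 25.0, 34.5 and 58.6 CPM at onset. Peak 4 lay within the onset range for Nr2e3, and the other peak libraries below it. Esrrb, a nuclear receptor that rods need to survive, had 63.0, 52.0, 62.8 and 80.7 CPM at peak, against 84.1, 93.0 and 147 CPM at onset, with no overlap and a log2 fold change of -0.75 ± 0.23 (SE). Crx, the homeobox factor shared by rods and cones, had a log2 fold change of -0.67 ± 0.47 (SE), with overlapping groups.

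The phototransduction cascade runs through transducin and phosphodiesterase to the cyclic-nucleotide-gated channel. Gnat1, the alpha subunit of rod transducin, had 11.2, 7.40, 6.08 and 8.70 CPM at peak and 11.3, 10.4 and 24.2 CPM at onset, a log2 fold change of -0.88 ± 0.34 (SE). Pde6g, the inhibitory subunit of rod phosphodiesterase, had 3.11, 0.854, 2.08 and 4.04 CPM at peak, against 7.90, 6.44 and 12.2 CPM at onset, with no overlap. The other phosphodiesterase subunits differed less, with log2 fold changes of -0.64 ± 0.34 (SE) for Pde6b and -0.56 ± 0.33 (SE) for Pde6a. The channel subunits did not share a direction, with -0.49 ± 0.28 (SE) for Cngb1 and 0.28 ± 0.34 (SE) for Cnga1. Sag, the arrestin of rods, had 25.9, 10.7, 20.7 and 34.2 CPM at peak and 31, 35.1 and 72.1 CPM at onset.

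In the outer segment, the light-sensing stack of discs, Prph2, a tetraspanin that shapes the disc rim, had 14.2, 10.2, 15.9 and 30.7 CPM at peak, against 27.6, 30.4 and 74.1 CPM at onset, a log2 fold change of -1.34 ± 0.40 (SE). Peak 4 was above onset 1 and onset 2, and the other peak libraries below all onset libraries. The matrix proteoglycan genes Impg1 and Impg2 did not share this direction and lay near 0, at -0.02 ± 0.25 and 0.04 ± 0.30 (SE). In Prph2, Nr2e3 and Sag the overlap came from peak 4, the shallowest library, and in Gnat1 from peak 1, as the plot of rod genes shows.

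**Figure D2:**
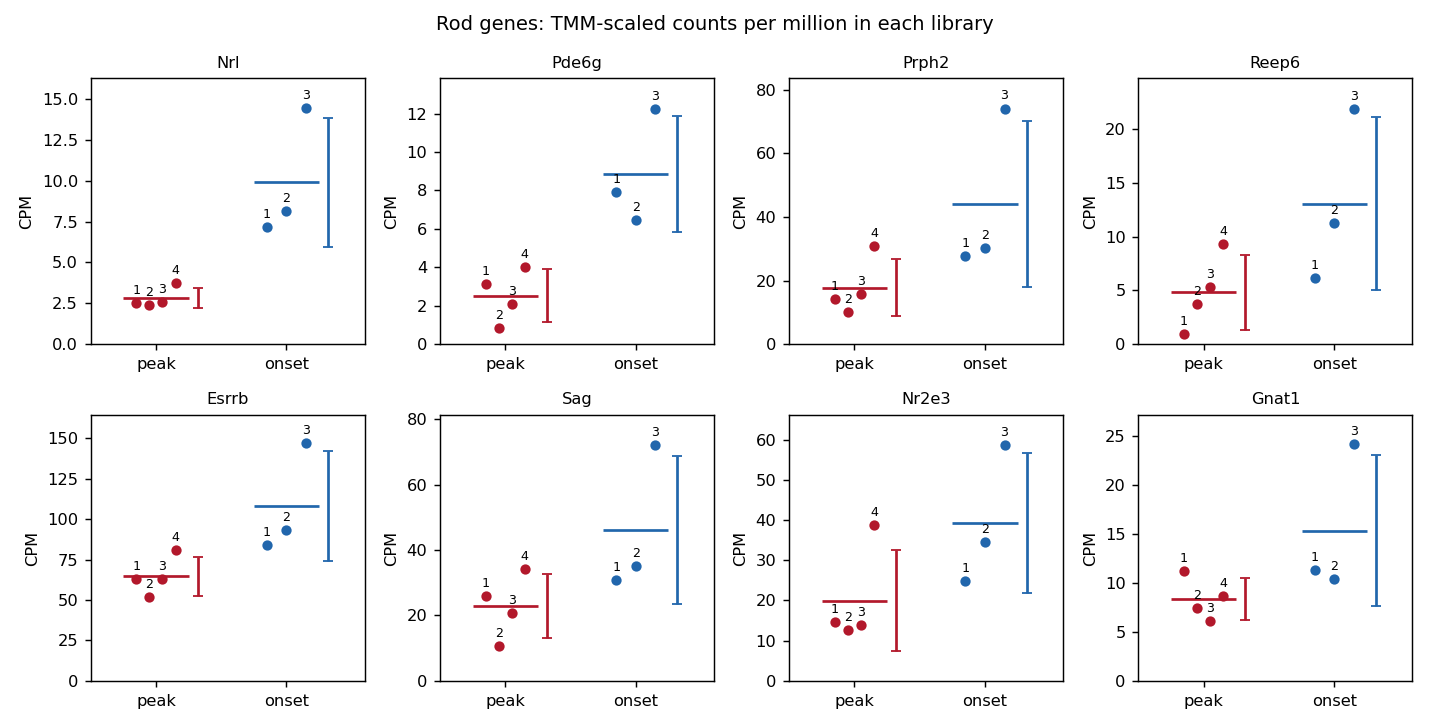
CPM on the vertical axis for 8 rod genes in peak (red, left) and onset (blue, right) libraries. Points are libraries with their number, lines group means, and bars the SD (n = 4 and 3). Onset 3 is the highest onset library in every panel, and Nrl, Pde6g and Esrrb do not overlap.

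The rod list summed to 402, 315, 411 and 525 CPM in peak libraries, against 520, 564 and 877 CPM in onset libraries. Onset 3 was the highest of all and peak 4 the highest at peak, just above onset 1. Naive libraries spanned 401 to 531 CPM and presymptomatic libraries 358 to 530 CPM, so the peak libraries lay near the symptom-free range and 2 of 3 onset libraries above it. Without onset 3 the median of the rod list was -0.41, with 20 of 23 genes lower, and 2 genes had an unadjusted p under 0.05 in place of 11. Without both onset 3 and peak 3, an alternative chosen after seeing the data, the median was -0.43 and 3 genes passed. The reads do not tell fewer rods in the sort apart from less accessible rod chromatin. The median density of the rod list, in reads per kb of interval and M nuclear reads, was 0.958 at peak and 1.61 at onset, against 0.958 at peak and 0.855 at onset for ganglion cell genes and 0.707 at peak and 0.653 at onset for all genes.

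Onset against naive and peak against naive share libraries with the comparison of peak and onset, so their values are only set side by side. The median of the rod list was 0.75 for onset minus naive and -0.07 for peak minus naive. For Nrl the fold changes were 1.23 for onset minus naive and -0.61 for peak minus naive. Other lists lay further from naive at peak. In the same order, the medians were 0.18 and -0.51 for histones, 0.13 and -0.26 for immediate early genes, and -0.03 and -0.32 for Müller glia and astrocytes. Clock genes went the way of the rods, with 0.23 and 0.004.

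Rp1l1 and Asmt, which are not in the rod list, were among the 10 genes with the smallest p of those lower at peak. Rp1l1, a microtubule-associated protein of photoreceptors, had 9.34, 10.1, 10.9 and 20.8 CPM at peak, against 36.1, 19.4 and 36.9 CPM at onset. Peak 4 was above onset 2, and the log2 fold change was -1.29 ± 0.34 (SE; edgeR adjusted p = 0.737). Asmt, the last enzyme of melatonin synthesis, had 1.27, 0.285, 0.641 and 0.932 CPM at peak and 5.52, 1.98 and 4.88 CPM at onset, with no overlap. Gnb1, the beta subunit of rod transducin, averaged 21.3 ± 4.93 CPM at peak (SD, n = 4) and 46.5 ± 17 CPM at onset (SD, n = 3). Impdh1, an enzyme of guanine nucleotide synthesis, averaged 11.7 ± 2.10 CPM at peak (SD, n = 4) and 26.1 ± 6.94 CPM at onset (SD, n = 3). Gnb1 and Impdh1 were chosen after their values were seen, so they do not extend the ranking.

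Cone genes were split in direction. Of 15 tested members 7 were lower, with a median of 0.02, and 4 were lower and 0 higher at an unadjusted p under 0.05, beside 3.67% of all genes lower. The median was -0.28 without onset 3, -0.28 without libraries 16 and 17, -0.24 without chromosomes X and Y, -0.20 without peak 2 and -0.19 without onset 1, and it kept its sign in 8 of 23 alternatives. Gnat2, the cone transducin subunit, had 4.67, 0.854, 2.72 and 6.83 CPM at peak and 5.52, 7.61 and 13.9 CPM at onset. Kcne2, a potassium channel subunit used here as a cone marker, had 0, 0.285, 0.320 and 1.55 CPM at peak and 1.5, 3.62 and 3.45 CPM at onset. The X-linked cone genes Opn1mw, a cone pigment, and Arr3, the cone arrestin, were on the other side, with log2 fold changes of 0.77 ± 0.38 and 0.90 ± 0.52 (SE).

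For the sorted cells themselves, Slc17a6, the vesicular glutamate transporter that loads ganglion cell synaptic vesicles, had the smallest p of its list. Slc17a6 (chr7:51621830-51671126, plus strand) had 17.1, 24.3, 21.1 and 14.3 CPM in peak libraries, against 8.90, 8.23 and 12.4 CPM in onset libraries. All peak libraries were above all onset libraries, with a log2 fold change of 0.97 ± 0.30 (SE; edgeR adjusted p = 0.737). Naive libraries averaged 17.7 CPM, so for Slc17a6, as for the rod list, the onset libraries were the ones that lay away from naive. An unnamed transcript in the table overlaps the Slc17a6 interval, and reads of the pair cannot be told apart.

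Other well-known ganglion cell genes had overlapping groups. Isl1, a homeobox factor of ganglion and bipolar cells, had 4.95, 17.1, 8.81 and 4.35 CPM at peak and 2.88, 3.37 and 5.75 CPM at onset, with peak 2 far above the rest. Rbpms, a widely used marker of ganglion cells, had 83.1, 161, 100 and 94.1 CPM at peak and 78.6, 106 and 63.4 CPM at onset, a log2 fold change of 0.41 ± 0.25 (SE). Sncg, gamma-synuclein, had 1.70, 3.99, 0.961 and 0 CPM at peak and 0.251, 0.403 and 1.01 CPM at onset. Thy1 averaged 4.78 ± 2.38 CPM at peak (SD, n = 4) and 4.21 ± 0.695 CPM at onset (SD, n = 3). Isl2 averaged 4.81 ± 2.05 CPM at peak (SD, n = 4) and 2.54 ± 2.02 CPM at onset (SD, n = 3), and Pou4f1, the factor known as Brn3a, had a log2 fold change of 0.10 ± 0.67 (SE). Of the 31 tested members 8 were lower at peak. Fes, a tyrosine kinase, was the one whose groups did not overlap, with 3.11, 4.55, 2.08 and 3.73 CPM at peak and 6.77, 5.71 and 6.35 CPM at onset. The ganglion cell list summed to 773 to 1185 CPM at peak and 604 to 908 CPM at onset, with the lowest sum in onset 3, the library with the highest rod sum.

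Outside the retina lists, Adh5 was well separated. Adh5 (chr3:138437200-138455499, plus strand) encodes the class III alcohol dehydrogenase, which clears formaldehyde and S-nitrosoglutathione. It had 13.6, 19.1, 17.1 and 14 CPM in peak libraries, against 39.7, 40.7 and 40.0 CPM in onset libraries. The gap was wider than the spread of either group, with a log2 fold change of -1.33 ± 0.25 (SE) and an adjusted p of 0.228 with edgeR and 0.0043 with DESeq2. Presymptomatic libraries averaged 29.0 CPM and naive libraries 28.3 CPM, between both stages. The neighbouring genes of the same family, Adh4, Adh1 and Adh7, had log2 fold changes of -0.29 ± 0.44, -0.05 ± 0.58 and -0.10 ± 0.30 (SE).

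The other genes with the smallest p among those lower at peak had varied roles. Mif encodes a cytokine that holds macrophages in place and is also made by neurons. It had 3.54, 8.54, 4.96 and 4.66 CPM at peak, against 12.7, 14.9 and 15.5 CPM at onset, with no overlap and a log2 fold change of -1.39 ± 0.33 (SE; edgeR adjusted p = 0.737). Prx, periaxin, a protein of Schwann cell myelin, had 5.38, 8.11, 9.45 and 4.97 CPM at peak and 18.6, 15.7 and 21.4 CPM at onset. Rhob, a small GTPase, averaged 1.11 ± 0.649 CPM at peak (SD, n = 4) and 4.6 ± 1.34 CPM at onset (SD, n = 3). The counted interval of Rhob is only 228 bp long and held 4, 4, 9 and 6 reads in peak libraries, so its values rest on few reads. Ubl5, a ubiquitin-like protein that takes part in splicing, averaged 2.14 ± 1.58 CPM at peak (SD, n = 4) and 8.05 ± 1.21 CPM at onset (SD, n = 3). C2cd2l, a lipid transfer protein at contacts of endoplasmic reticulum and plasma membrane, averaged 3.27 ± 1.30 CPM at peak (SD, n = 4) and 11.6 ± 3.99 CPM at onset (SD, n = 3). The counted intervals of Prx and Ubl5 overlap other genes (Gm15541 and Fbxl12), so their reads are uncertain.

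Zfp263, a zinc finger factor, had 0 reads in all 4 peak libraries and 75 reads over the 3 onset libraries. Against a floor of 3 counts over the peak group, its level per M nuclear reads, pooled over each group, was at least 10.4-fold lower at peak. Onset 1 had the highest level, with 3.76 CPM against 0.769 CPM in onset 2 and 1.10 CPM in onset 3. The reads were 30, 21 and 24 in onset 1 to 3. The DESeq2 adjusted p of Zfp263 was 0.0400 and that of edgeR 0.457. Mrpl20, a mitochondrial ribosomal protein, was also at 0 in every peak library, with 52 onset reads and a pooled level at least 7.22-fold lower at peak. Mrpl20 was chosen after its values were seen. In all, 17 tested genes were at 0 in the 4 peak libraries. Since peak libraries were the shallower ones, the low counts limit what these zeros can show.

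Of the 10 genes with the smallest p among those higher at peak, 6 lie on chromosome X. Emd, which encodes the nuclear envelope protein emerin, had 4.25, 4.84, 3.04 and 6.21 CPM in peak libraries, against 0.502, 0.695 and 1.29 CPM in onset libraries. Its log2 fold change was 2.39 ± 0.51 (SE), with an adjusted p of 0.464 with edgeR and 0.00425 with DESeq2. Bmx, a tyrosine kinase of the Tec family, had 25.2, 35.6, 29.6 and 28.6 CPM at peak, against 13.0, 14 and 14 CPM at onset. For Emd and Bmx, peak 3 did not lead the group. Fam122b had 19.7, 21.9, 47.4 and 13.0 CPM at peak and 9.78, 10.4 and 7.59 CPM at onset, and there peak 3 was far above the rest. Gab3, an adaptor of growth factor signalling, had 29.1, 26.8, 55.4 and 15.5 CPM at peak and 10.7, 14.4 and 15.4 CPM at onset. Cnga2, a channel subunit of olfactory neurons, averaged 11.3 ± 4.79 CPM at peak (SD, n = 4) and 4.15 ± 1.54 CPM at onset (SD, n = 3).

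The autosomal genes of this ranking were Slc17a6, Naip2, Colec10 and Mir467c. Naip2, a sensor that activates the inflammasome on bacterial secretion proteins, had 14.9, 19.9, 18.1 and 15.5 CPM at peak, against 7.90, 8.45 and 9.11 CPM at onset, with no overlap. Colec10, a secreted collectin, had 16.3, 27.0, 25.9 and 26.1 CPM at peak and 15.3, 11.7 and 11.0 CPM at onset. Mir467c had at most 2.48 CPM in a peak library, and its window lies within Sfmbt2 and holds other microRNA genes. Values of the ranked genes stand in the plot of ranked genes.

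**Figure D3:**
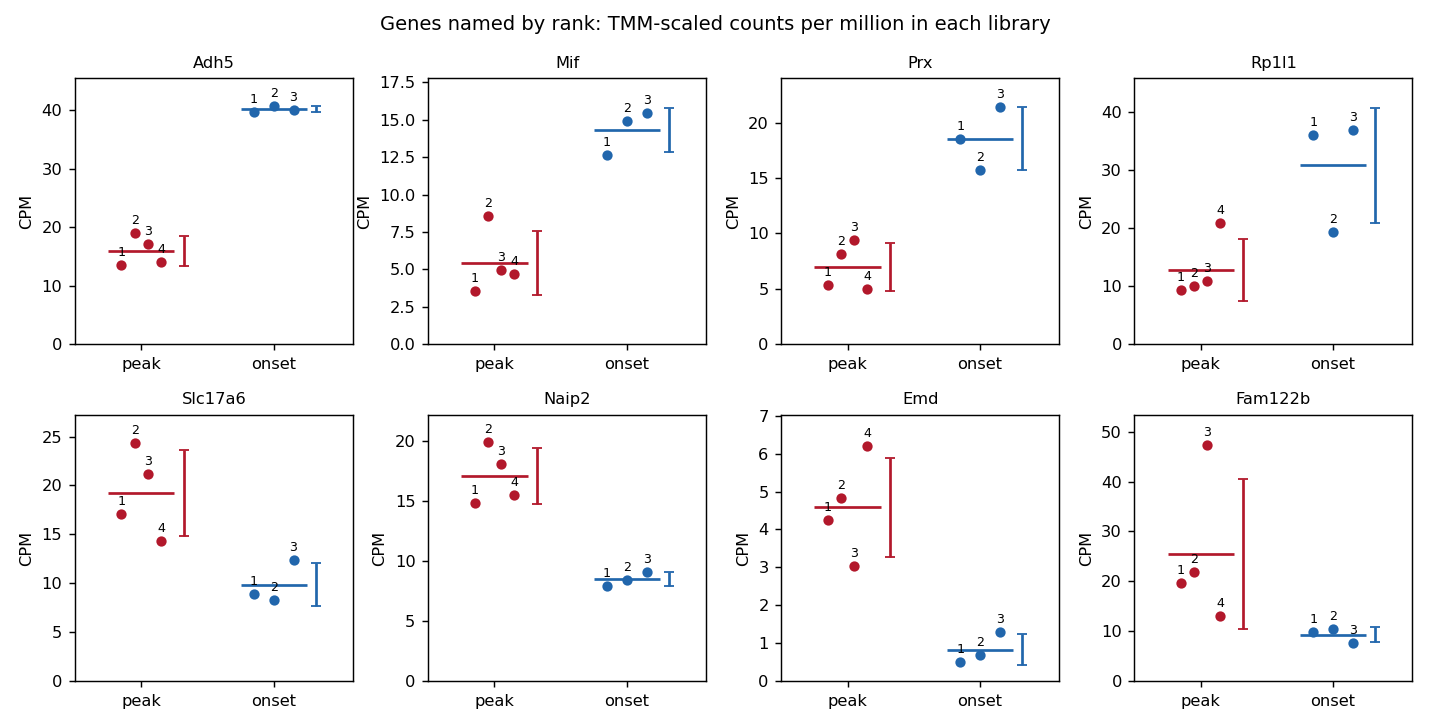
CPM on the vertical axis for 8 genes named by rank in peak (red, left) and onset (blue, right) libraries, with library numbers, group means and SD (n = 4 and 3). Adh5, Mif and Prx are lower in all peak libraries, Rp1l1 overlaps, and Slc17a6, Naip2, Emd and Fam122b are higher in all peak libraries.

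Most tested genes of chromosome X had the same direction. Of 1099 tested X-linked genes, 86.8% were higher at peak, with a median log2 fold change of 0.58, while the medians of the 19 autosomes ran from -0.14 to 0.09. At an unadjusted p under 0.05, 162 X-linked genes were higher and 6 lower, beside 2.98% of all genes higher and 3.67% lower. Chromosome X was singled out after the values were seen, and mice in all groups were labelled female. X intervals took 3.87, 4.64, 7.79 and 3.79% of nuclear reads in peak libraries, against 3.49, 4.23 and 3.08% in onset libraries. Peak 1, peak 2 and peak 4 were close to or within the onset range, and peak 3 was far above it. Without peak 3 the median of X-linked genes was 0.20 with 66.4% higher, and with the receptor share as a covariate it was 0.06. The counts at an unadjusted p under 0.05 were then 33 higher and 14 lower without peak 3, and 33 higher and 21 lower with the covariate. Among all 16 libraries, peak 3 and naive 3 and 4 had both the highest X shares (7.79, 8.18 and 7.10%) and the highest receptor shares (0.487, 0.562 and 0.495%). The part of background in the X-linked values was not tested beyond these fits.

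**Figure D4:**
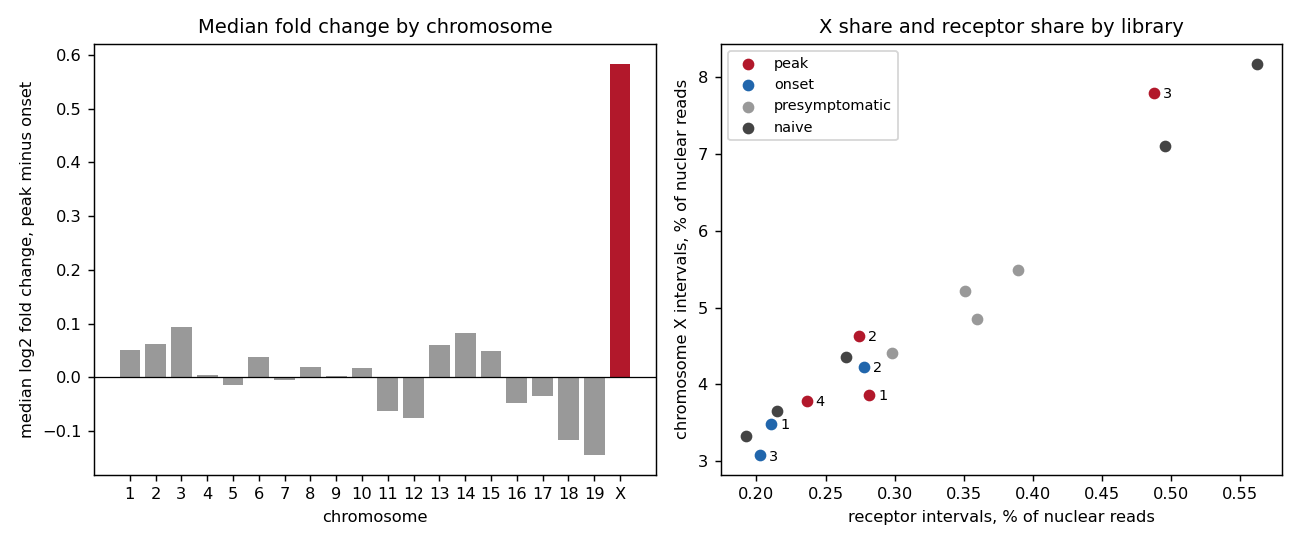
Left, median log2 fold change (peak minus onset) of tested genes by chromosome, where X is at 0.58 and autosomes lie between -0.14 and 0.09. Right, share of nuclear reads in X intervals against the share in olfactory and vomeronasal receptor intervals for the 16 libraries, in percent, with peak and onset libraries numbered. Peak 3 lies with 2 naive libraries at the top right.

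Fold change also followed how densely a gene was covered. Genes were put in deciles of read density over the 16 libraries, for intervals of at least 500 bp. The median log2 fold change was 0.12 in the lowest decile, -0.12 in decile 9 and -0.37 in the highest decile, where 19.7% of genes were higher at peak. Without onset 2 the median of the highest decile was -0.27, and without onset 3 it was -0.54, so the direction held without each. Of the rod genes, 12 of 23 fell in the top 2 deciles, and 25 of the 26 histone genes did. The rod median was -0.75 and the histone median -0.53, beside -0.37 in the highest decile. Without onset 3 the order turned for the rods, with a rod median of -0.41 above the -0.54 of the decile, and the histone median was -0.77.

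**Figure D5:**
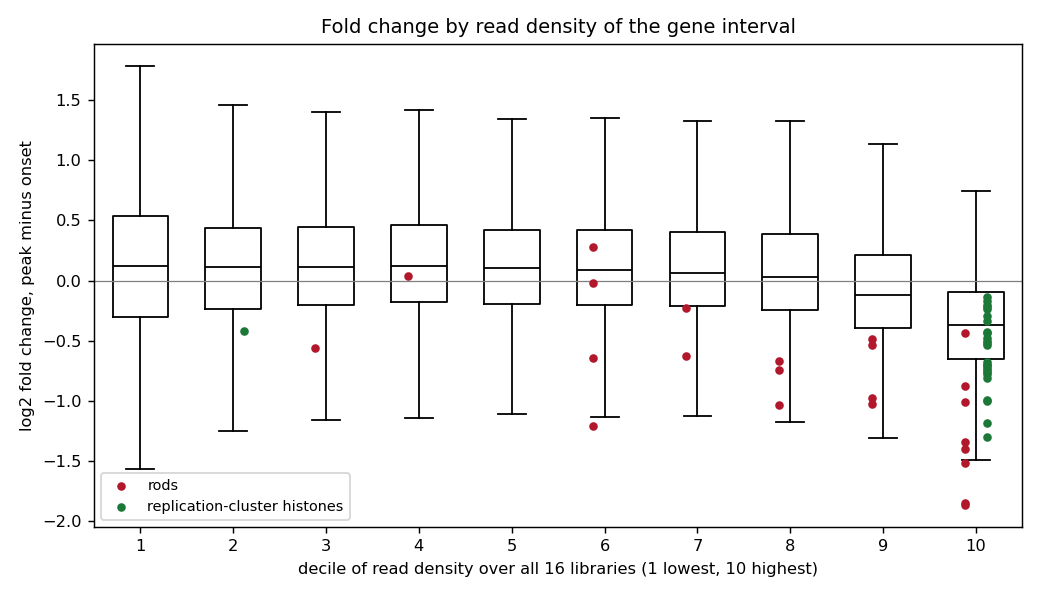
Log2 fold change, peak minus onset, on the vertical axis by decile of read density on the horizontal axis. Boxes span the quartiles with the median as a line, and whiskers reach the most extreme gene within 1.5 times the quartile range. Points are rod genes (red) and histone genes (green). The median is 0.12 in decile 1 and -0.37 in decile 10.

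The replication-dependent histone genes, short genes without introns that sit in clusters, were lower at peak in all 26 tested members, with a median of -0.53. Of these, 25 are under 2000 bp, and the median span of the list is 488.5 bp. Windows of the members under 1000 bp take in flanking DNA, so there the reads cover the gene's start as well. Hist1h1e, a linker histone, had 4.25, 8.68, 2.88 and 12.1 CPM in peak libraries, against 21.2, 16 and 13.2 CPM in onset libraries. The groups did not overlap, and the log2 fold change was -1.30 ± 0.42 (SE; edgeR adjusted p = 0.737). Hist1h2bg, a core histone H2B, had 7.78, 15.5, 5.28 and 14.3 CPM at peak and 28.8, 23.9 and 11.3 CPM at onset, with overlap through onset 3. The list summed to 168, 320, 141 and 365 CPM at peak, against 454, 402 and 244 CPM at onset. Naive libraries spanned 161 to 566 CPM, a range that took in every one of these sums but that of peak 3. Histone paralogs are alike in sequence, and how reads with several alignments were treated was not given. With the receptor share as a covariate the median was -0.27, and without peak 3 it was -0.34.

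To show what the windows of short genes hold, the promoters of Mif and of both histone genes are given from RefSeq (GRCm38.p6), 250 bases before to 50 after the start, 5′ to 3′. Capitals mark the bases inside the counted window. Mif is at chr10:75860228-75860527 (minus strand) with 125 of 300 bases in the window, Hist1h1e (H1f4) at chr13:23622509-23622808 (minus strand) with 268, and Hist1h2bg (H2bc8) at chr13:23571150-23571449 (plus strand) with 300. Both ends of the histone genes in the table equal those of this build, and one end of Mif does.
Mif: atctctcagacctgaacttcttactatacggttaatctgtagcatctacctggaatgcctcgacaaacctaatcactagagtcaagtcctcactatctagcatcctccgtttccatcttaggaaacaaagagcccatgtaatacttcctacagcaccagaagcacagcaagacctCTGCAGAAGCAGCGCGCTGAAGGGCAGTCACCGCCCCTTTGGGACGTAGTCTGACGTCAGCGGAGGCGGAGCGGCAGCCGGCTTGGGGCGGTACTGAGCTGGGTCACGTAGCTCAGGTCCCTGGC
Hist1h1e: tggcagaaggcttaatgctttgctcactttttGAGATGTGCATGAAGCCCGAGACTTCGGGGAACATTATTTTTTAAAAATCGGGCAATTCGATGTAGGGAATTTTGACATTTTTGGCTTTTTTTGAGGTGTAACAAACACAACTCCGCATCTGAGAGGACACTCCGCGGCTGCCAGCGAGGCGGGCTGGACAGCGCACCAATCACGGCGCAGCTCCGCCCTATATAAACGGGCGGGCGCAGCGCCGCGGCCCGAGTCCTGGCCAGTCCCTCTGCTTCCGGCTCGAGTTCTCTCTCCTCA
Hist1h2bg: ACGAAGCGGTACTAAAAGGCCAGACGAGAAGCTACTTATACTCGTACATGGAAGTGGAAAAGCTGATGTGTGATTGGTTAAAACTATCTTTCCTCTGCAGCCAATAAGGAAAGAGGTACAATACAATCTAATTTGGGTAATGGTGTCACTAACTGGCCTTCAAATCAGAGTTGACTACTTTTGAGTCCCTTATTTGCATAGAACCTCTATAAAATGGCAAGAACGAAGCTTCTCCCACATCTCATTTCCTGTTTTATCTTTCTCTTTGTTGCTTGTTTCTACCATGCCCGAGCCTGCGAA
Some of the histone promoters carry the letters of known histone gene elements. The octamer ATTTGCAT, on either strand, was in 5 of the 23 histone promoters matched, against 1.74% of the 32851 promoters of the same length. TATAAA was in 15 of the 23, against 13.6% of all. Hist1h2bg holds both, the octamer ahead of the TATA letters.

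MicroRNA genes are shorter still, so their windows are mostly flanking DNA. Among them, 3 with small p were chosen after their values were seen, and their mature RNAs are shown to identify them, with the seed (bases 2 to 8) in capitals, from RefSeq (GRCm38.p6). They map to chr10:122985698-122985719 (minus strand) for let-7i-5p, chr1:36144290-36144312 (minus strand) for miR-6897-5p and chr2:18057846-18057867 (plus strand) for miR-7655-5p.
let-7i-5p: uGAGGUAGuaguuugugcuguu
miR-6897-5p: uGGGGGCAgugucacacgcuguu
miR-7655-5p: cGGCCCACggagcuccuaaaga
The seeds differ, that of let-7i being the one shared by the let-7 family, which holds back growth and stem cell programmes. The Mirlet7i window averaged 2.18 ± 0.871 CPM at peak (SD, n = 4) and 6.77 ± 2.27 CPM at onset (SD, n = 3), and its log2 fold change was -1.63 ± 0.45 (SE). The Mir6897 window averaged 1.01 ± 0.354 CPM at peak (SD, n = 4) and 4.14 ± 1.01 CPM at onset (SD, n = 3). The Mir7655 window averaged 5.08 ± 3.07 CPM at peak (SD, n = 4) and 13.3 ± 2.14 CPM at onset (SD, n = 3). In these 3 windows all peak libraries were below all onset libraries, as in 4.18% of all genes. The windows were chosen for a small p, so this separation is no separate support. Whether they overlap other genes was not checked.

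Immediate early genes, which neurons switch on within minutes of activity or injury, were lower in 17 of 22 tested members, with a median of -0.36. Fosb had 18.1, 26.3, 13.8 and 22.7 CPM at peak, against 49.8, 41.3 and 27.7 CPM at onset, with no overlap. It was not among the 2 members with the smallest p, Egr2 and Jun. In 2 of the 22 members all peak libraries were below all onset libraries, beside 4.18% of all genes. Egr2 averaged 12.5 ± 3.68 CPM at peak (SD, n = 4) and 21.3 ± 4.27 CPM at onset (SD, n = 3). Jun, also the main transcription factor of axon injury, had 8.49, 17.9, 9.93 and 5.59 CPM at peak and 24.7, 24.3 and 10.2 CPM at onset, where onset 3 lay within the peak range. The immediate early list summed to 222 to 321 CPM at peak and 289 to 371 CPM at onset, while naive libraries spanned 224 to 410 CPM. This list too is densely covered, with a median density decile of 10. Its median was -0.09 with the receptor share as a covariate, -0.21 without peak 3 and -0.57 without peak 2.

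Axon injury genes were lower in 21 of 26 members, with a median of -0.20, which was 0.01 with the receptor share as a covariate, -0.08 without peak 3 and -0.34 without peak 2. Mapk8ip1, a scaffold of JNK signalling, had 15.4, 20.6, 8.01 and 21.1 CPM at peak, against 35.7, 23 and 31.4 CPM at onset. Among cell death genes 14 of 26 were lower (median -0.01), and Aifm1, the X-linked apoptosis-inducing factor, averaged 17.8 ± 6.79 CPM at peak (SD, n = 4) and 9.76 ± 0.558 CPM at onset (SD, n = 3). Trp53, p53, had a log2 fold change of -0.86 ± 0.48 (SE). Integrated stress response genes (10 of 18 lower, median -0.05) and unfolded protein and heat shock genes (10 of 16 lower, median -0.18, and -0.06 without peak 3) lay near the other genes. In the stress lists, Ppp1r15a, the phosphatase subunit GADD34, had at most 0.320 CPM in a peak library and at least 0.828 CPM in an onset library. Canx, the chaperone calnexin, had a log2 fold change of 0.81 ± 0.44 (SE), the heme-regulated kinase gene Eif2ak1 0.80 ± 0.47 (SE) and Pdia4, a disulfide isomerase, -0.72 ± 0.47 (SE).

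Clock genes were lower in 19 of 21 tested members, with a median of -0.25, which was -0.09 without peak 3 and -0.11 with the receptor share as a covariate. Nr1d1, the repressor REV-ERB alpha, had 10.3, 16.9, 9.29 and 21.1 CPM at peak and 19.6, 25.0 and 31.6 CPM at onset. Dbp, an output factor of the clock, had 6.65, 6.55, 2.72 and 9.32 CPM at peak, against 14.8, 10.5 and 12.8 CPM at onset, with no overlap. Clock, Cry1 and Npas2 lay near 0, at 0.04, -0.06 and -0.01. The clock list summed to 708 to 1093 CPM at peak and 1074 to 1229 CPM at onset, while naive libraries spanned 776 to 1283 CPM. The time of day of collection was not given, and 11 of the 21 genes were in the top 2 density deciles.

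Enzymes and factors that set DNA methylation and pluripotency were lower in 14 of 19 members, with a median of -0.16. The median was near 0 in some fits and turned in one: it was -0.07 without onset 3, -0.08 without peak 3, -0.02 without libraries 16 and 17, -0.04 with the receptor share as a covariate and 0.10 without both onset 3 and peak 3. Tet3, which oxidises methylated cytosine, had 48.7, 47.3, 33.1 and 48.1 CPM at peak, against 83.1, 57.3 and 70.7 CPM at onset. Dnmt3a, a de novo methyltransferase, had 67.5, 72.4, 63.4 and 111 CPM at peak, against 124, 125 and 130 CPM at onset. Neither overlapped. Klf4, a reprogramming factor, averaged 4.61 ± 2.03 CPM at peak (SD, n = 4) and 4.98 ± 1.34 CPM at onset (SD, n = 3), and Pou5f1 and Sox2 were below the filter.

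Immune lists gave little separation. Interferon response genes were lower in 16 of 40 members (median 0.07), antigen presentation genes in 11 of 16 (median -0.12, and 0.003 without onset 3) and NF-kB and cytokine genes in 9 of 20 (median 0.03). Tnfaip3, the brake on NF-kB known as A20, had 5.38, 8.82, 11.0 and 8.39 CPM at peak and 14.2, 10.7 and 20.2 CPM at onset. Rela, the p65 subunit of NF-kB, had 0, 0, 0.961 and 3.42 CPM at peak and 4.01, 2.05 and 3.73 CPM at onset. Mx1 and Oas1a, both antiviral genes induced by interferon, lay on opposite sides, with log2 fold changes of 1.09 ± 0.53 and -1.93 ± 0.87 (SE). Microglia and macrophage genes summed to 123 to 150 CPM at peak and 130 to 137 CPM at onset, and lymphocyte genes to 71.4 to 86.8 CPM at peak and 74.7 to 76.0 CPM at onset. Their medians were 0.06 (7 of 16 lower) and -0.06 (9 of 17 lower), and the spread at peak covered the onset range for both sums. Sall1 and P2ry12, both markers of microglia, had log2 fold changes of 0.75 ± 0.41 and 0.37 ± 0.27 (SE), and Cx3cr1, the fractalkine receptor, 0.05 ± 0.67 (SE). Cd8b1, a T cell coreceptor chain, had 1.42, 2.42, 1.92 and 2.48 CPM at peak, against 2.76, 2.89 and 4.51 CPM at onset. Foxp3, the X-linked factor of regulatory T cells, had 3.68, 5.27, 22.9 and 5.59 CPM at peak and 2.13, 2.67 and 4.92 CPM at onset, with peak 3 apart. In the presentation list, H2-K1, a class I molecule, was at 0 in 3 peak libraries and had at most 1.01 CPM at onset, and Psmb10, an immunoproteasome subunit, had a log2 fold change of -0.68 ± 0.38 (SE).

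Among other cell types, Müller glia and astrocyte genes were lower in 13 of 17 members (median -0.34). That median was -0.11 without onset 3, -0.21 without peak 3, -0.11 without libraries 16 and 17, -0.12 after thinning to equal depth and -0.09 with the receptor share as a covariate. Clu, clusterin, had 1.84, 2.13, 3.68 and 3.73 CPM at peak, against 4.76, 4.25 and 5.80 CPM at onset, and Lhx2, a homeobox factor of Müller glia, averaged 13.4 ± 1.75 CPM at peak (SD, n = 4) and 19.2 ± 1.83 CPM at onset (SD, n = 3). For neither gene did the groups overlap, whereas Glul, glutamine synthetase, overlapped, with a log2 fold change of -0.61 ± 0.44 (SE). Bipolar genes were lower in 11 of 16 members (median -0.25, and -0.09 without onset 3), although Irx6, a homeobox factor of bipolar cells, had 5.24, 9.11, 5.28 and 2.48 CPM at peak, against 2.01, 1.87 and 2.35 CPM at onset. Amacrine and horizontal genes were lower in 11 of 17 (median -0.14, and -0.32 to -0.06 without each library in turn). Their factors Tfap2a and Tfap2b were high in onset 1 and onset 2 but not in onset 3, where Tfap2a had 25.9 CPM beside 63.4 and 58.3 CPM. Tfap2a averaged 29.3 ± 6.45 CPM at peak (SD, n = 4) and 49.2 ± 20.4 CPM at onset (SD, n = 3), and Tfap2b 17.2 ± 4.98 CPM at peak and 29.7 ± 15.2 CPM at onset. Endothelium and pericyte genes (7 of 18 lower, median 0.09), oligodendrocyte genes (9 of 14 lower, median -0.03) and pigment epithelium genes (8 of 14 lower, median -0.08) lay near the other genes. Rpe65, the visual cycle isomerase of the pigment epithelium, had 6.93, 16.8, 13.8 and 9.32 CPM at peak and 3.13, 7.10 and 4.42 CPM at onset, and Lrat, its partner in the cycle, 7.36, 4.70, 1.92 and 0.932 CPM at peak and 2.01, 0.695 and 1.93 CPM at onset. Myrf, the factor that drives myelin genes, averaged 6.10 ± 1.92 CPM at peak (SD, n = 4) and 11.0 ± 3.39 CPM at onset (SD, n = 3). The pericyte genes Pdgfrb and Rgs5 had log2 fold changes of -0.75 ± 0.30 and 0.48 ± 0.30 (SE).

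Neuronal function lists stayed near the median of all genes. Synapse genes were lower in 19 of 29 members (median -0.13, and -0.04 without peak 3) and channels and glutamate receptors in 19 of 33 (median -0.04). Dlg4, the scaffold PSD-95, averaged 18.3 ± 7.51 CPM at peak (SD, n = 4) and 31.6 ± 9.55 CPM at onset (SD, n = 3). Syn1, the X-linked synapsin, averaged 34.7 ± 12.3 CPM at peak (SD, n = 4) and 21.0 ± 3.39 CPM at onset (SD, n = 3). Kcnk2, a leak potassium channel, had 60.0, 66.3, 122 and 52.8 CPM at peak and 42.9, 52.2 and 52.2 CPM at onset, with peak 3 highest, and Kcnc1, a fast potassium channel, had a log2 fold change of -0.65 ± 0.32 (SE). Trpm4, a cation channel implicated in axon damage in EAE, averaged 5.35 ± 1.73 CPM at peak (SD, n = 4) and 8.54 ± 2.56 CPM at onset (SD, n = 3). Nuclear oxidative phosphorylation genes were lower in 12 of 29 (median 0.14), cholesterol synthesis genes in 11 of 22 (median 0.03) and cytosolic ribosomal protein genes in 4 of 15 (median 0.25). Without peak 1 the medians of the oxidative phosphorylation and ribosomal lists were -0.06 and -0.01, and without onset 2 they were -0.06 and 0.10. Cox6c, a subunit of cytochrome c oxidase, had a log2 fold change of -1.70 ± 0.71 (SE). The cholesterol enzyme genes Nsdhl, which is X-linked, and Hmgcs1 had 0.82 ± 0.32 and 0.74 ± 0.44 (SE). Rps4x, X-linked too, had 1.71 ± 0.87 (SE). Rpl22 was lower at peak, with 5.52, 10.2, 7.85 and 13.0 CPM at peak and 13.3, 15.9 and 21.2 CPM at onset. The ribosomal list held no firm direction, since its sum was 24.8 to 29.2 CPM at peak and 28.0 to 40.5 CPM at onset. Its median was -0.25 with a minimum count of 30 and -0.75 after thinning, and 15 of the 34 listed passed the filter. Hox genes, which pattern the trunk and are silent in the retina, were lower in 4 of 14 (median 0.41, -0.11 without peak 1, 0.11 without onset 2, and -0.16 with the scaling by total counts that put all genes at -0.53). Hoxd3 had 12.6, 13.9, 9.61 and 8.70 CPM at peak and 4.76, 2.85 and 9.93 CPM at onset, and Hoxc13 at most 2.48 CPM in a peak library and 1.06 CPM in an onset library. The Hox genes were thinly covered, with 38.8 to 66.8 CPM for the whole list at peak and 23.5 to 48.9 CPM at onset, and 15 of the 29 listed were below the filter.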

How the data were processed

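ATAC-seq libraries were made from sorted cells with 10 PCR cycles, per the labels. Tools named in the submitters' processing notes are HTSeq, HISAT2 and cutadapt, with no version; build, annotation, duplicates, multiple alignments and any shift of read ends are not stated there or in the labels. Counts as deposited are unscaled whole reads over each gene interval. The authors' RPKM values divide counts by the library total and by the gene's span less 2000 bp, so the counted interval is the gene without 1000 bp at each end, and RPKM served only to learn this. Gene names matched a RefSeq table (GRCm38.p6) for 86.8% of 37255 intervals, and starts were equal for 70.5% of shared names.

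Interval reads per library ranged from 3.71 to 30.9 M. Counts were fitted with edgeR 4.0.16 in R 4.3.3 (quasi-likelihood, TMM, filterByExpr with a minimum count of 10) on the 4 groups of 16 libraries together, contrast peak minus onset, with Benjamini-Hochberg adjustment over 29902 genes and a threshold of 0.05. limma 3.58.1 and DESeq2 1.42.0 were alternatives, and the test was checked on simulated data. Library measures had exact permutation tests. The 28 lists, their members and the comparison were chosen with earlier results of these data known. The text names the 10 genes with the smallest p in each direction (unnamed models and receptors left out), the 2 members with the smallest p in each list (4 for rods and ganglion cells), fixed reference genes, and genes said to be chosen after their values were seen. Results for a few genes that the rule selects are not reported here. Further list members are named where a sentence describes the list. Alternatives were other tests, scalings and filters, thinning, a background covariate, the replicate number as a block and leaving out libraries.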

Additional observations from a re-analysis of the deposited data

Results flagged for a closer look

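Of 116 values tested over the 4 peak libraries, 10 had a library whose gap to the nearest of the others relative to the group's range exceeded Dixon's 95% critical value, and chance flags about 1 in 20. Onset, with 3 libraries, was not tested. Peak 4 had the lowest nuclear reads, 1.58 M beside 3.39 to 3.7 M in the other peak libraries. It was also the highest peak library for the photoreceptor genes Nrl (3.73 CPM) and Rp1l1 (20.8 CPM) and the lowest for Ppp1r15a (0 CPM). Ppp1r15a had 2, 2, 2 and 0 reads in the peak libraries, so its flag lies at the floor.

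Peak 3, the peak library with the largest receptor share, was the highest for the X-linked gene Foxp3 (22.9 CPM). It was the lowest for Tet3 (33.1 CPM) and for the synapse list, whose mean log2 CPM was 4.96 there. Peak 1 was the lowest for Colec10 (16.3 CPM) and the only peak library above 0 for H2-K1 (0.283 CPM). The H2-K1 flag rests on 2 reads. Peak 2 was the lowest for the lymphocyte list, with a mean log2 CPM of 1.28.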

How the results depend on the processing

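edgeR's count of 0 calls held in 22 of 23 alternatives, and DESeq2 gave 5. Counts at an unadjusted p under 0.05 were 892 higher and 1096 lower (44.9% higher). They were 1359 and 1050 with DESeq2 (56.4% higher), 1099 and 922 with relative log expression factors (54.4%), 730 and 1329 with limma-trend (35.5%), 391 and 797 without onset replicate 1 (32.9%) and 620 and 832 without peak replicate 3. Leaving out 1 library in turn gave 391 to 1283 higher and 797 to 1377 lower. Scaling by total counts with mitochondrial reads gave 34 higher and 4684 lower (0.721% higher), with the median of all genes at -0.53 and of rods at -1.41, and 20 rod genes lower at an unadjusted p under 0.05. That rod count was 11 in the reported fit, 9 to 13 without each other library in turn, 2 without onset replicate 3, 2 without libraries 16 and 17 and 3 without both onset replicate 3 and peak replicate 3; the cause was not tested. The rod median ran from -0.93 to -0.41 over the fits that left out 1 library.

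The 20 genes named by rank kept their direction in every alternative that tested them. They were picked by p in these same libraries, so the kept direction is no separate support. The difference in nuclear reads ranged from -9.43 to -4.01 M without each library in turn, where a permutation p of 0.05 cannot be reached. The receptor share as a share of all interval reads gave a difference of -0.000454 percentage points, a reversed sign near 0. The list median of cytosolic ribosomal proteins was -0.75 after thinning, and that of axon injury genes 0.01 with the receptor covariate. Deviations from the group mean had correlations of -0.07, 0.107 and -0.167 between same-numbered peak and onset libraries. Differently numbered pairs ran from -0.243 to 0.282, so these few values cannot tell whether the numbers pair libraries. With the replicate block there were 0 calls, with 724 genes higher and 1112 lower at an unadjusted p under 0.05. Depth limits low genes, since peak libraries had 1.58 to 3.7 M nuclear reads.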
